A study of Homo sapiens with 74 samples.

Results

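The super elongation complex and the kinase it carries, positive transcription elongation factor b (P-TEFb), were followed through 10 genes: AFF1 and AFF4, ELL, ELL2 and ELL3, EAF1, CDK9, CCNT1 and CCNT2, and HEXIM1. They were chosen by name, out of the 28131 genes of the deposited tables. All 10 were found in both tables and all 10 passed the filter on low counts. Polyadenylated RNA was sequenced from 2 established human lines of erythroleukaemia, K562 and HEL. K562 was studied as wild type cells, as DOT1L-/- cells (DOT1L KO) and as ENL-/- cells (ENL KO). HEL was studied as control cells and after DOT1L knockdown (DOT1L KD). DOT1L methylates lysine 79 of histone H3, and ENL, the product of MLLT1, reads acylated histones and is found both with DOT1L and in the super elongation complex. The labels do not say whether a knockout line was 1 clone, what the HEL control cells received, or which reagent gave the knockdown.

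RNA polymerase II pauses shortly after it starts on many genes. P-TEFb, the kinase CDK9 bound to cyclin T1 (CCNT1) or cyclin T2 (CCNT2), phosphorylates the polymerase and the factors that hold it, and the polymerase then moves into the gene body. Much of the cell's P-TEFb is kept inactive in the 7SK ribonucleoprotein, where HEXIM1 inhibits the kinase. In the super elongation complex, AFF1 or AFF4 is the scaffold that joins P-TEFb to an ELL protein, its partner EAF1 or EAF2, and ENL or AF9 (MLLT3). Several of these genes, AFF1, ELL and MLLT1 among them, are known as fusion partners of KMT2A in acute leukaemia.

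K562 gave 2 control, 3 DOT1L KO and 3 ENL KO libraries with 15404944 to 29236703 counted fragments each, and HEL gave 2 control and 2 DOT1L KD libraries with 12151495 to 12811688 counted reads. A K562 control column identical to another in every gene was counted with it as 1 library. The labels name no separate cultures, so the tests measure the spread between these libraries, which may be technical. DOT1L fell by 0.53 on the log2 scale in its knockout and by 1.64 in the knockdown, and MLLT1 fell by 0.48 in the ENL KO, so each targeted transcript was still counted. All 8 erythroid marker genes were counted in every group. CPM is a count scaled for the size of its library. The markers summed to 3903 to 4247 CPM in the K562 controls and 7592 to 7925 CPM in the DOT1L KO. The ENL KO gave 5050 to 5407 CPM, the HEL controls 4422 to 4522 CPM and the DOT1L KD 6220 to 6899 CPM. Most of each sum was globin, HBG1, HBG2 and HBZ in K562 and HBG1 and HBG2 in HEL. GATA1 stood at 303 to 306 CPM in the HEL controls and 285 to 300 CPM in the knockdown. The other erythroid markers were higher in the knockdown. The 4 megakaryocytic markers summed to 1470 to 1528 CPM in the HEL controls and 1324 to 1367 CPM in the knockdown, with PF4 at 18.3 to 18.8 and 4.88 to 5.40 CPM. In K562 their sum was nearly all ITGA2B, at 3.86 to 5.86 CPM in the controls, 24.6 to 25.3 CPM in the DOT1L KO and 10.7 to 14.5 CPM in the ENL KO. Of the 3 fibroblast markers, the collagen gene COL1A1 was at 10.1 to 11.7 CPM in the K562 controls and at 114 to 120 CPM in the DOT1L KO, PDGFRB was at 1.37 to 2.00 and 0.899 to 1.15 CPM in the same groups and at 3.89 to 5.27 and 1.14 to 2.94 CPM in the HEL control and knockdown, and DCN stayed at 6 counts or fewer in every K562 library. Of the 3 T lymphoid markers, CD3D was at 51.1 to 52.8 CPM in the K562 controls, 15.4 to 20.1 in the DOT1L KO and 60.9 to 72.0 in the ENL KO. CD2 held 0 or 1 count in K562 and was at 8.49 to 11.1 CPM in the HEL controls. CD3E held 13 counts or fewer. The epithelial marker KRT8 was at 683 to 694 CPM in the K562 controls, 580 to 642 in the DOT1L KO and 750 to 840 in the ENL KO. EPCAM was at 120 to 121, 77.9 to 85.0 and 92.2 to 98.5 CPM in the same groups. In HEL, KRT8 was at 13.1 to 14.3 CPM in the control and 23.4 to 28.6 in the knockdown. B lymphoid markers summed to 2.51 CPM or less. The part of these differences in the results below was not tested. In RNA from whole cultures, fewer cells of a kind and less RNA per cell cannot be told apart.

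Members moved in both directions in each comparison. In the K562 DOT1L KO, 2 of the 10 passed an adjusted p of 0.05 (edgeR's quasi-likelihood test, Benjamini-Hochberg adjustment over all genes tested), CCNT2 higher and ELL3 lower, whereas 51.1% of all 14301 genes tested passed it, 26.9% higher and 24.2% lower. In the K562 ENL KO, 6 of 10 passed, with ELL2, EAF1 and CCNT2 higher and AFF1, ELL3 and CDK9 lower, beside 41.0% of all genes, 18.8% higher and 22.2% lower. In the HEL DOT1L KD, 7 of 10 passed, with AFF4, CDK9 and CCNT2 higher and ELL2, EAF1, CCNT1 and HEXIM1 lower, beside 55.0% of all 12635 genes tested, 27.0% higher and 28.0% lower. Under upper-quartile scaling 8 members passed in HEL, AFF1 being added as higher (0.12, adjusted p 0.00888, over all alternatives 0.00888 to 0.682), and 61.4% of the called genes were higher in place of 49.1%. Over all genes, 7180 passed in HEL under that scaling, in place of 6951. Between the 2 knockouts, 4 of 10 passed, with AFF1 and CDK9 higher in the DOT1L KO and ELL and ELL2 higher in the ENL KO, beside 60.2% of all genes, 31.8% higher and 28.3% lower in the DOT1L KO. The median of the members' log2 fold changes was 0.00 in the DOT1L KO, 0.03 in the ENL KO and -0.14 in the HEL knockdown, beside medians of 0.01, 0.00 and 0.01 over all genes tested. The median size of a change, sign set aside, was 0.10 for the members in the DOT1L KO beside 0.29 for all genes, 0.25 beside 0.25 in the ENL KO, and 0.33 beside 0.24 in HEL. Both knockouts were set against the same 2 control libraries, so their values are given side by side and no likeness between them is drawn. The ENL KO labels name no sequencing lane whereas the control and DOT1L KO labels do, and ENL loss and a difference in batch cannot be told apart.

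**Figure D1:**
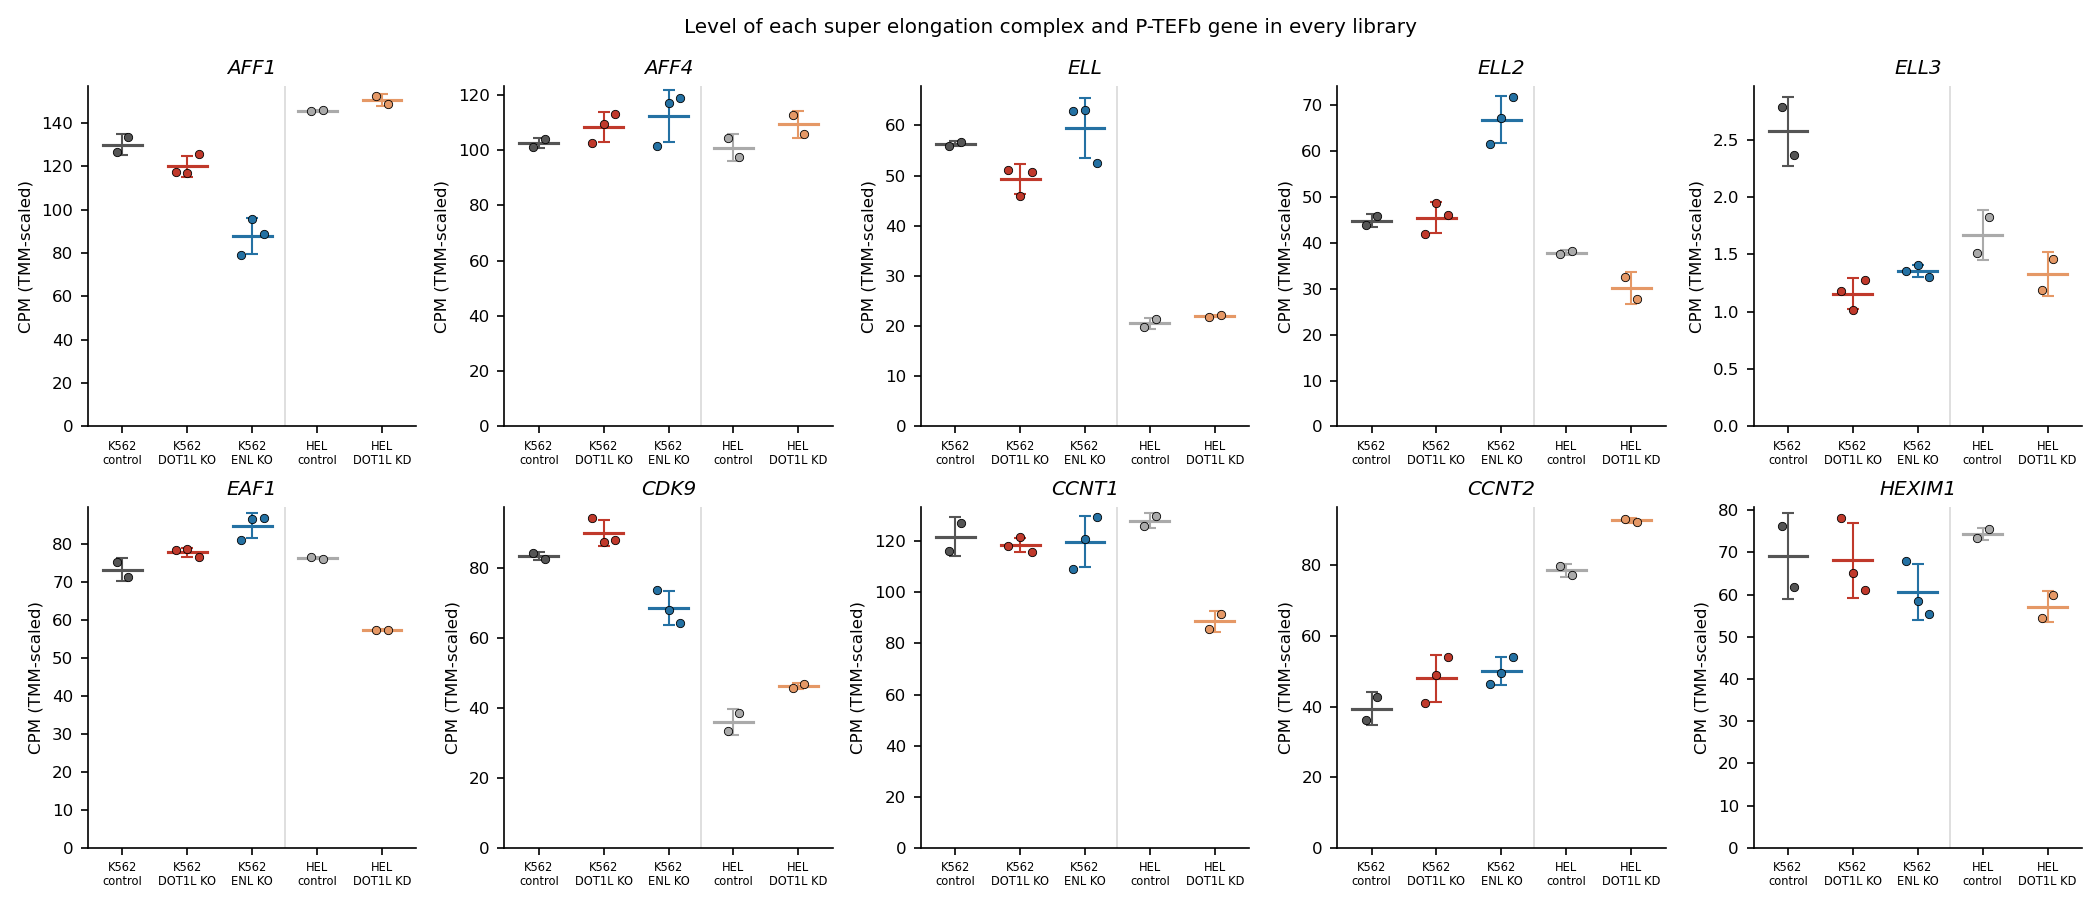
TMM-scaled CPM of each gene (vertical axis from 0) in every library of the 5 groups; points are libraries, horizontal lines group means and bars 1 SD. AFF1 and CDK9 sit lowest among the K562 groups in the ENL KO and ELL2 sits highest there, while CCNT1, EAF1 and HEXIM1 sit lower in the HEL knockdown than in the HEL control.

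Levels of different genes were compared per length, as TPM, the count per exonic base of a gene scaled to a common sum over all genes of the library. In the K562 controls CDK9 was the most abundant member at 86.4 ± 0.919 TPM (SD, n = 2). CCNT1 at 44.0 ± 2.88 TPM and EAF1 at 42.2 ± 1.59 TPM followed and did not differ beyond their libraries' spread. HEXIM1 at 37.0 ± 5.39 TPM overlapped both ELL at 35.9 ± 0.453 TPM and AFF1 at 34.2 ± 1.32 TPM, which did not overlap each other. Below them came AFF4 at 27.6 ± 0.593, ELL2 at 19.7 ± 0.662, CCNT2 at 13.8 ± 1.64 and ELL3 at 3.12 ± 0.357 TPM (all SD, n = 2), none overlapping the next. In the HEL controls the order differed. CCNT1 led at 45.4 ± 0.576 TPM, followed by EAF1 at 43.1 ± 0.527 and HEXIM1 at 39.1 ± 0.381 TPM. AFF1 at 37.6 ± 0.282 and CDK9 at 36.5 ± 3.33 TPM came next (SD, n = 2). The libraries of CDK9 overlapped those of both AFF1 and HEXIM1. CCNT2 at 26.9 ± 0.869 and AFF4 at 26.6 ± 1.53 TPM overlapped each other, ELL2 stood at 16.3 ± 0.0677 TPM, above ELL at 12.8 ± 0.597 TPM, and ELL3 was again last at 1.98 ± 0.240 TPM (SD, n = 2). CDK9 and ELL were thus both listed at a lower TPM in HEL than in K562 and CCNT2 at a higher one. Fragments were counted in K562 and reads in HEL, and no test was made between the lines' levels.

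AFF1 and AFF4 are the alternative scaffolds. AFF1 (chromosome 4, 86935002 to 87141054, GRCh38, plus strand) stood at 127 and 133 CPM in the K562 controls, at 117, 117 and 126 CPM in the DOT1L KO, and at 79.1, 95.6 and 88.6 CPM in the ENL KO. All 3 ENL KO libraries lay below every other K562 library. The log2 fold change against control was -0.57 (SE 0.074, adjusted p 3.82e-05), so the level fell by 32.5%, and this kept its call under every alternative run. The DOT1L KO gave -0.12 (SE 0.073, adjusted p 0.208), and AFF1 was higher in the DOT1L KO than in the ENL KO by 0.45 (SE 0.067, adjusted p 5.68e-05). In HEL it stood at 146 and 146 CPM in the control and 153 and 149 CPM in the knockdown, a difference of 0.05 (SE 0.040, adjusted p 0.317).

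AFF4 (chromosome 5, 132875396 to 132963634, minus strand) varied least among the members. It stood at 101 and 104 CPM in the K562 controls, 103, 110 and 113 CPM in the DOT1L KO, and 102, 117 and 119 CPM in the ENL KO, with log2 fold changes of 0.08 (SE 0.072, adjusted p 0.379) and 0.13 (SE 0.073, adjusted p 0.172). The groups overlapped, and the ENL KO value passed only without ENL KO library 1 (0.20, adjusted p over all alternatives 0.0228 to 0.434). In HEL it rose by 0.12 (SE 0.047, adjusted p 0.0336), from 104 and 97.5 CPM to 113 and 106 CPM. That call was lost without HEL control 2, without knockdown library 1, with DESeq2 and without the filter on low counts (adjusted p over all alternatives 0.000574 to 0.348, log2 fold change 0.07 to 0.19). AFF1 made up 55.1 and 55.7% of the summed AFF1 and AFF4 TPM in the K562 controls, 51.2 to 52.8% in the DOT1L KO and 42.2 to 44.5% in the ENL KO. In the ENL KO libraries AFF4 was therefore the more abundant scaffold transcript per length, and in every other library AFF1 was, at 57.0 to 59.5% in HEL.

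The ELL proteins are the elongation factors of the complex. ELL (chromosome 19, 18442663 to 18522127, minus strand) stood at 56.0 and 56.8 CPM in the K562 controls, 51.2, 45.8 and 50.8 CPM in the DOT1L KO, and 62.9, 63.1 and 52.5 CPM in the ENL KO. The DOT1L KO libraries lay below both controls, with a difference of -0.20 on the log2 scale (SE 0.085, adjusted p 0.0687) that did not pass, although it did without ENL KO library 3 in the fit, in a fit of K562 DOT1L KO and control libraries alone and without the count filter (adjusted p over all alternatives 0.0254 to 0.223). The ENL KO gave 0.08 (SE 0.085, adjusted p 0.478). ELL was lower in the DOT1L KO than in the ENL KO (log2 difference -0.28, SE 0.076, adjusted p 0.00639). In HEL the values were 19.7 and 21.3 CPM in the control and 21.8 and 22.2 CPM in the knockdown (0.10, SE 0.095, adjusted p 0.379).

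ELL2 (chromosome 5, 95885098 to 95961851, minus strand), a partner of AFF4 in the complex and best known in antibody-secreting cells, was raised in the ENL KO and lowered in the HEL knockdown. It stood at 43.8 and 45.8 CPM in the K562 controls and at 61.6, 67.2 and 71.7 CPM in the ENL KO, an increase of 49.1% (log2 fold change 0.58, SE 0.083, adjusted p 9.52e-05). All 3 ENL KO libraries lay above every other K562 library. The DOT1L KO libraries, at 41.8, 48.7 and 46.0 CPM, overlapped the controls (0.02, SE 0.083, adjusted p 0.828), and the 2 knockouts differed by -0.55 (SE 0.073, adjusted p 2.07e-05). In HEL, ELL2 fell from 37.5 and 38.2 CPM to 32.7 and 27.7 CPM, by 0.33 on the log2 scale (SE 0.079, adjusted p 0.000427). Without knockdown library 2 that value was -0.22 (adjusted p 0.0487, the highest over all alternatives, which began at 2.60e-05).

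ELL3 (chromosome 15, 43772600 to 43777304, minus strand) was the scarcest member and had the largest fold change. Its K562 control libraries held 60 and 50 counts, those of the DOT1L KO 26, 30 and 27, and those of the ENL KO 28, 29 and 20. The control levels were 2.79 and 2.36 CPM. DOT1L KO libraries stood at 1.18, 1.01 and 1.28 CPM and ENL KO libraries at 1.35, 1.41 and 1.30 CPM. Both controls, which the knockouts share, lay above the libraries of each knockout. The log2 fold change was -1.17 (SE 0.21, adjusted p 0.000489) in the DOT1L KO and -0.92 (SE 0.22, adjusted p 0.00410) in the ENL KO. The second was lost without control 1 (-0.80, adjusted p 0.0550, the highest over all alternatives, which began at 0.00278). HEL held 15 to 23 counts per library, and its value of -0.33 carried an SE of 0.34 (adjusted p 0.424), so a difference from the control was not detectable at this depth. Exons of SERF2 on the opposite strand cover 209 bases, or 9.89%, of the exonic length of ELL3, and exons of PDIA3 cover 7 bases. SERF2 was far more abundant, with 2646 to 6453 counts in K562, and its log2 fold change was -0.01 (adjusted p 0.931) in the DOT1L KO and -0.37 (adjusted p 5.97e-05) in the ENL KO. Whether strand was used in counting is not given in the sources used here, so the value of ELL3 is uncertain to that extent.

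The make-up of the ELL family transcripts was compared per library, without a test between groups. ELL2 made up 33.1 and 34.0% of the summed ELL, ELL2 and ELL3 TPM in the K562 controls, 35.1 to 41.3% in the DOT1L KO and 39.4 to 47.4% in the ENL KO. ELL remained the largest share in every K562 library, from 50.2 to 62.2%. In HEL control libraries ELL2 was the largest share at 51.6 and 53.4%, and in the knockdown it was 48.3 and 43.4%, with ELL at 46.8 and 50.3%. ELL3 contributed 2.37 to 2.86% in the K562 knockouts and 4.85 to 6.79% elsewhere.

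EAF1 (chromosome 3, 15427598 to 15442613, plus strand), which binds ELL proteins and stimulates their activity, moved in opposite directions in the ENL KO and in HEL. It stood at 75.4 and 71.3 CPM in the K562 controls and 81.1, 86.7 and 86.9 CPM in the ENL KO, a rise of 0.21 (SE 0.060, adjusted p 0.0128). That call was lost without control 2 and without ENL KO library 2 (adjusted p over all alternatives 0.00381 to 0.129, log2 fold change 0.17 to 0.25). The DOT1L KO libraries, at 78.5, 78.7 and 76.5 CPM, gave 0.09 (SE 0.060, adjusted p 0.241). The difference between the knockouts, -0.12 (SE 0.053, adjusted p 0.0623), passed without ENL KO library 1 (-0.15; adjusted p over all alternatives 0.0266 to 0.281). In HEL, EAF1 fell from 76.6 and 76.2 CPM to 57.5 and 57.4 CPM, that is, it fell by 24.8% (log2 fold change -0.41, SE 0.054, adjusted p 5.62e-09), with the replicates of each group close together.

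**Figure D2:**
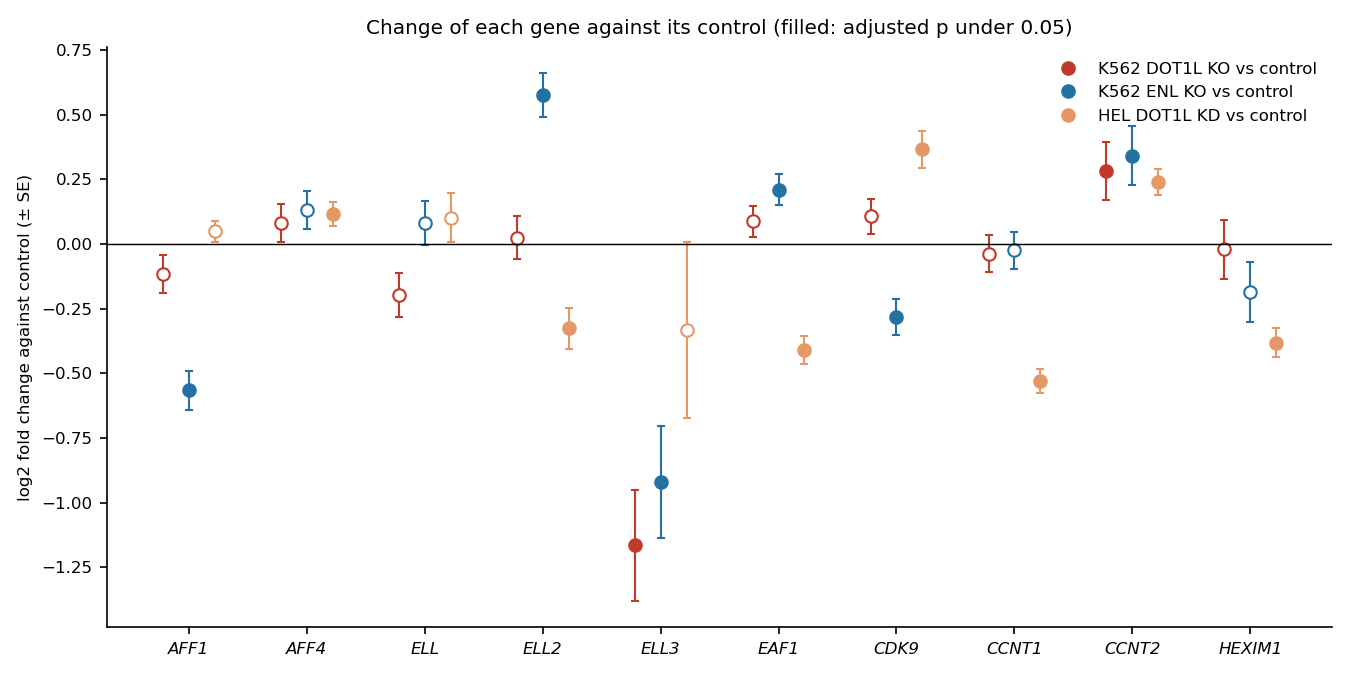
Log2 fold change against control with its SE (vertical axis) for the 10 genes in 3 comparisons; filled points passed an adjusted p of 0.05. The K562 DOT1L KO has 2 filled points, the ENL KO 6 and the HEL knockdown 7, and ELL3 in K562 lies lowest at -1.17.

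CDK9 (chromosome 9, 127786026 to 127790773, plus strand) is the catalytic subunit of P-TEFb. It fell in the ENL KO and rose in the HEL knockdown. K562 control libraries stood at 84.1 and 82.6 CPM, DOT1L KO libraries at 94.1, 87.3 and 87.9 CPM and ENL KO libraries at 73.5, 67.8 and 64.1 CPM. All DOT1L KO libraries were above both controls and all ENL KO libraries below them. The ENL KO gave -0.28 on the log2 scale (SE 0.068, adjusted p 0.00456), so its level fell by 17.8%. The DOT1L KO gave 0.11 (SE 0.067, adjusted p 0.205), and the knockouts differed by 0.39 (SE 0.061, adjusted p 8.85e-05). In HEL, CDK9 rose from 33.4 and 38.5 CPM to 45.7 and 46.9 CPM, by 28.8% (0.37, SE 0.071, adjusted p 2.01e-05).

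CCNT1 (chromosome 12, 48688458 to 48716998, minus strand) encodes cyclin T1, the regulatory subunit of most P-TEFb in many cells and the one that the HIV Tat protein binds. Its K562 groups overlapped, and it had the lowest adjusted p of the members in HEL. The K562 controls stood at 116 and 127 CPM, the DOT1L KO at 118, 121 and 116 CPM and the ENL KO at 109, 121 and 129 CPM, all overlapping, with log2 fold changes of -0.04 (SE 0.071, adjusted p 0.684) and -0.02 (SE 0.072, adjusted p 0.820). In HEL, CCNT1 fell from 126 and 130 CPM to 85.6 and 91.6 CPM, or fell by 30.8% (log2 fold change -0.53, SE 0.046, adjusted p 2.38e-14).

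CCNT2 (chromosome 2, 134918822 to 134959345, plus strand), the alternative cyclin, rose in all 3 comparisons with a control. The K562 comparisons share their controls, and their calls rested on single libraries. It stood at 36.2 and 42.7 CPM in the K562 controls, 41.0, 48.9 and 54.1 CPM in the DOT1L KO, and 46.5, 49.6 and 54.1 CPM in the ENL KO. DOT1L KO library 1 lay between the controls, whereas the ENL KO libraries all lay above them. The log2 fold changes were 0.28 (SE 0.11, adjusted p 0.0482) and 0.34 (SE 0.11, adjusted p 0.0267). The first was lost without control 1 (0.17), DOT1L KO library 2 or 3, or ENL KO library 2, and the second without control 1 (0.23), ENL KO library 2 or ENL KO library 3. Adjusted p ran from 0.00413 to 0.372 over the alternatives of the first and from 0.00189 to 0.254 over those of the second. In HEL the rise from 79.8 and 77.3 CPM to 93.2 and 92.1 CPM (0.24, SE 0.049, adjusted p 4.28e-05) kept its call under every alternative run. Cyclin T1 made up 75.5 and 76.9% of the summed cyclin T TPM in the K562 controls, 69.0 to 74.9% in the DOT1L KO and 70.9 to 71.7% in the ENL KO. In HEL it went from 62.1 and 63.6% in the control to 48.8 and 50.7% in the knockdown, where the 2 cyclins were about equal per length.

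HEXIM1 (chromosome 17, 45147317 to 45152101, plus strand, a single exon in the tables) encodes the P-TEFb inhibitor and is known to respond to P-TEFb inhibition. Its K562 libraries were the most scattered of the abundant members, at 76.3 and 61.8 CPM in the controls, 78.0, 65.2 and 61.1 CPM in the DOT1L KO and 68.0, 58.6 and 55.3 CPM in the ENL KO. The groups overlapped, with log2 fold changes of -0.02 (SE 0.11, adjusted p 0.897) and -0.19 (SE 0.12, adjusted p 0.224). The difference between the knockouts, 0.17 (SE 0.10, adjusted p 0.187), passed without ENL KO library 1 (0.26; adjusted p over all alternatives 0.00350 to 0.622). In HEL, HEXIM1 fell from 73.4 and 75.4 CPM to 54.5 and 59.8 CPM, that is, it fell by 23.2% (log2 fold change -0.38, SE 0.056, adjusted p 7.85e-08). With CDK9 higher and HEXIM1 lower, the HEXIM1 to CDK9 ratio of TPM in HEL went from 1.14 and 1.01 in the control to 0.616 and 0.659 in the knockdown. In K562 the ratio was 0.387 and 0.469 in the controls, 0.359 to 0.429 in the DOT1L KO and 0.446 to 0.478 in the ENL KO. Each knockout overlapped the controls, and the knockouts did not overlap each other.

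**Figure D3:**
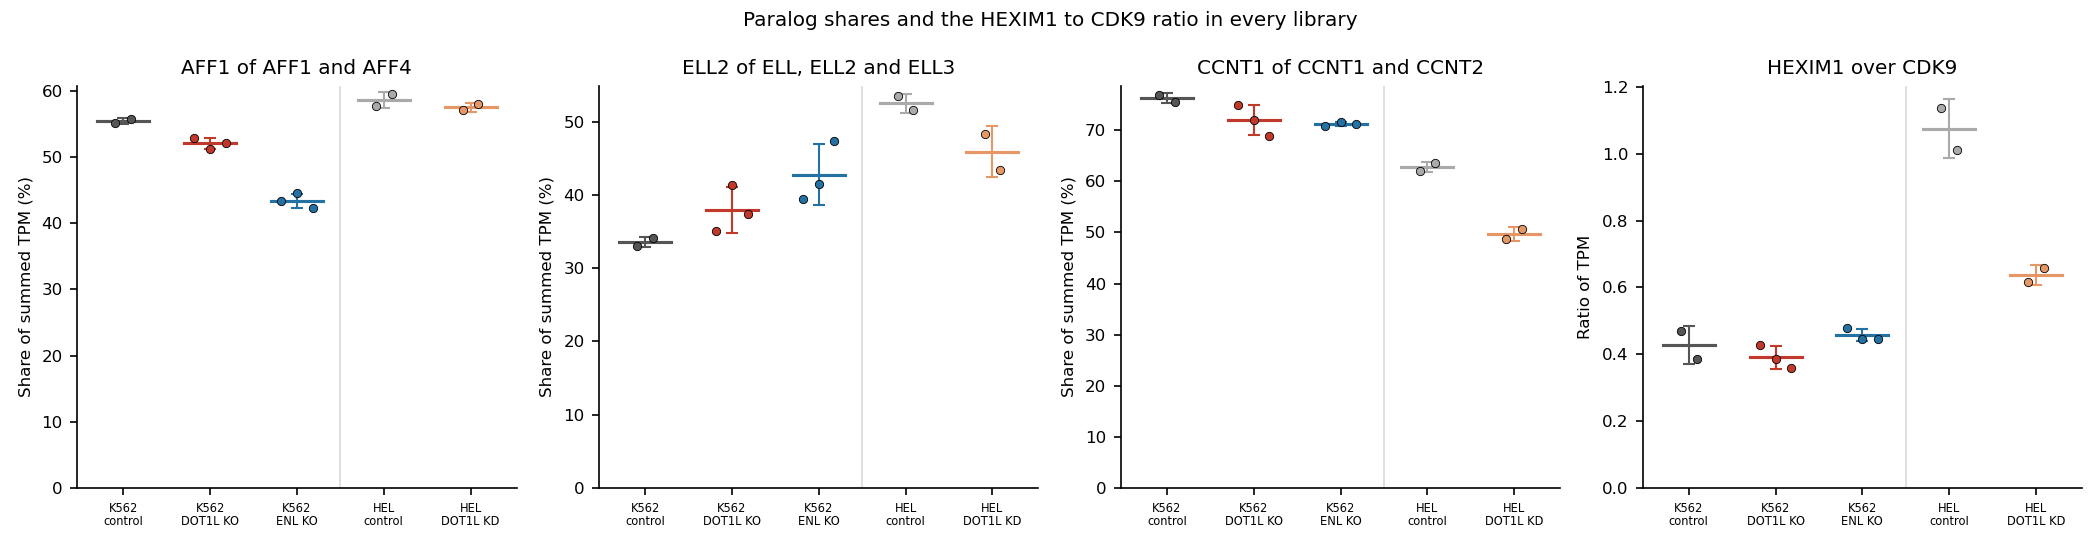
Shares of summed TPM (%) for AFF1, ELL2 and CCNT1 within their families and the HEXIM1 to CDK9 ratio of TPM, per library, with group means and SD; all axes start at 0. The AFF1 share is lowest in the ENL KO (42.2 to 44.5%), and the CCNT1 share and the HEXIM1 ratio are lower in the HEL knockdown than in the HEL control.

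Promoters are shown for 5 of the 7 members that passed in HEL, EAF1, CCNT1 and HEXIM1, which fell, and CDK9 and CCNT2, which rose, and for AFF1, which fell in the ENL KO. ELL2 and AFF4, the other two that passed in HEL, are not shown. Sequences are from RefSeq (GRCh38.p14), in which 9 of the 10 members matched an entry. The windows are the 150 bases before the listed start, 5′ to 3′ on the gene's strand. Capitals mark matches, on either strand, to 5 short motifs, and no matches overlap in the sequences shown. The TATA box, found near the start of a minority of genes, was searched for as TATAAA. The box that the factor NF-Y binds was searched for as CCAAT. The GC box, which SP1 and related factors bind, was searched for as GGGCGG. A core of the sites of ETS-family factors was searched for as CCGGAAG. The E-box of the MYC and USF factors was searched for as CACGTG. EAF1 is shown from chr3:15427448-15427597, CDK9 from chr9:127785884-127786033, CCNT2 from chr2:134918672-134918821 and AFF1 from chr4:86934861-86935010, all on the plus strand.
EAF1: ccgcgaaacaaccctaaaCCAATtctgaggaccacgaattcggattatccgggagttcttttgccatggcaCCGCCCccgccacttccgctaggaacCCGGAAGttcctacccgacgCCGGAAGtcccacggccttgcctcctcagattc
CDK9: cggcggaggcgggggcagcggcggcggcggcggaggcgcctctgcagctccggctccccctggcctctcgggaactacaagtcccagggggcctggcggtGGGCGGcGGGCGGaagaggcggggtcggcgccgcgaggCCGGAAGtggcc
CCNT2: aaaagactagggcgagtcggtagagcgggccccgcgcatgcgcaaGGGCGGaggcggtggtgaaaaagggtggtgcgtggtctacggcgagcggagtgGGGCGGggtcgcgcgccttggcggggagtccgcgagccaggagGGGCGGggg
AFF1: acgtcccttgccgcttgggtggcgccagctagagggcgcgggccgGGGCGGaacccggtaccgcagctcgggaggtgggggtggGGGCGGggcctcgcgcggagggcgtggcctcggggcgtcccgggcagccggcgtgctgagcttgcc
Only 30 bases are shown for HEXIM1 (chr17:45148434-45148463, plus strand) around its TATA match and for CCNT1 (chr12:48716828-48716857, minus strand) around its ETS match, since the tables place these positions inside the genes.
HEXIM1: aaaaagcttctaTATAAAaggggcgcagag
CCNT1: cattCCGGAAGtaggtcctttgacttttgc

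The EAF1 window held 2 ETS matches, 1 NF-Y box and 1 GC box. CDK9 held 1 ETS match and 2 GC boxes, CCNT1 held 1 ETS match and none of the other motifs, CCNT2 held 3 GC boxes and AFF1 held 2. The window of AFF4 held 2 GC boxes and 1 E-box. HEXIM1 held a TATA match that begins 29 bases before the RefSeq start, 1 NF-Y box and 2 GC boxes. Of all 35116 RefSeq windows of this length, 6.85% held the ETS letters, 23.5% the NF-Y box, 36.8% a GC box, 6.71% the TATA box and 4.57% the E-box. ETS letters were thus in windows of genes that fell in HEL, EAF1 and CCNT1, and of CDK9, which rose. These matches describe letters in a window and were not tested against any binding data.

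DOT1L depletion was compared between the lines as the difference of the log2 fold change in HEL from that in K562. Of the 10 members, 5 differed, with ELL and CDK9 more positive in HEL and ELL2, EAF1 and CCNT1 more negative, beside 38.9% of all 15367 genes tested, 19.8% more positive and 19.1% more negative. K562 had a knockout and fragment counts, HEL a knockdown and read counts, and these cannot be told apart from the line. The difference was -0.48 (SE 0.085, adjusted p 0.000111) for EAF1 and -0.48 (SE 0.083, adjusted p 9.37e-05) for CCNT1, and both kept their call under every alternative run. ELL2 gave -0.33 (SE 0.12, adjusted p 0.0341), CDK9 0.28 (SE 0.10, adjusted p 0.0331) and ELL 0.32 (SE 0.12, adjusted p 0.0415). All 3 calls were lost under DESeq2 and without HEL control 1, HEL knockdown library 2, K562 control 1 or DOT1L KO library 2, that of ELL2 also without HEL control 2, that of CDK9 also without HEL knockdown library 1 or DOT1L KO library 3, and that of ELL without any 1 of the libraries of this comparison except DOT1L KO library 1. Those of CDK9 and ELL were also lost with library-size scaling alone and with no filter on low counts (adjusted p over all alternatives 0.00423 to 0.246, 0.00666 to 0.241 and 0.0113 to 0.172 in the same order). HEXIM1, at -0.34 (SE 0.14, adjusted p 0.0585), did not pass, but did without K562 control 1 (-0.48), without DOT1L KO library 2 or 3 and with library-size scaling alone (adjusted p over all alternatives 7.97e-06 to 0.312). AFF1, at 0.18 (SE 0.077, adjusted p 0.0684), passed without K562 control 1 (0.24; adjusted p over all alternatives 0.00367 to 0.203). CCNT2 differed by -0.03 (SE 0.13, adjusted p 0.949) and AFF4 by 0.05 (SE 0.086, adjusted p 0.695). ELL3, at few counts, differed by 0.70 to 1.00 over the alternatives and did not pass.

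**Figure D4:**
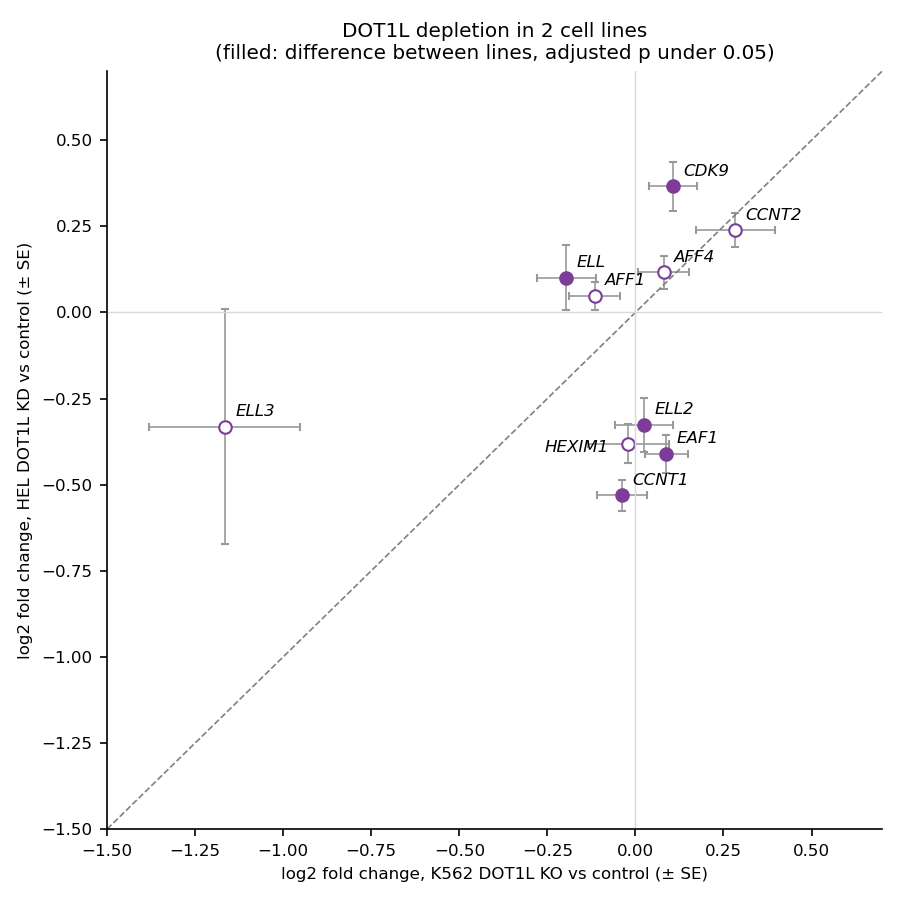
Log2 fold change after DOT1L knockout in K562 (horizontal) against DOT1L knockdown in HEL (vertical), each with its SE, for the 10 genes; the dashed line marks equal change and filled points differed between the lines at an adjusted p of 0.05. CCNT1, EAF1, ELL2 and HEXIM1 lie near 0 in K562 and between -0.33 and -0.53 in HEL.

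The 3 members with the largest root mean square of their log2 fold changes against control were ELL3 (0.88), ELL2 (0.38) and AFF1 (0.34). Among 8985 genes with at least 5 CPM on average in both lines, the genes nearest to AFF1 over these 3 comparisons were EDC3, DMXL2 and SMOX, with root mean square differences of 0.02, 0.02 and 0.03 on the log2 scale. Nearest to ELL2 were IFT172, ABCC4 and FAM72A (0.05, 0.05 and 0.06), and nearest to ELL3 were HMGCS1, GPT2 and SLC25A29 (0.09, 0.11 and 0.11). These are descriptions over 3 values that share libraries. ELL3 itself lay below 5 CPM. Its values carried SEs of 0.21, 0.22 and 0.34, larger than its distances to the nearest genes. The SEs were 0.073, 0.074 and 0.040 for AFF1 and 0.083, 0.083 and 0.079 for ELL2, also larger than their distances. The nearest genes of all 3 members are therefore not well resolved.

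A list of 25 other genes of the pathway held close paralogs and partners, the rest of the 7SK ribonucleoprotein, P-TEFb recruitment and release factors, pausing factors, the little elongation complex and other kinases of the polymerase. Of the 24 tested in K562, 13 passed in the DOT1L KO, 6 higher and 7 lower, and 7 passed in the ENL KO, 3 higher and 4 lower. Of the 22 tested in HEL, 11 passed, 5 higher and 6 lower. These counts include AFF2 and AFF3, at low counts, which passed the filter only through a group where they are high. Both are among the higher genes in the DOT1L KO. AFF3 is also among the lower ones in the ENL KO and AFF2 among the lower ones in HEL. Their calls lend no support. Over all genes the shares were 51.1%, 41.0% and 55.0%. The median log2 fold change of the list was -0.10, 0.03 and -0.09 in the same order, beside 0.01, 0.00 and 0.01 over all genes.

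AFF2, AFF3 and EAF2 are paralogs of members. AFF3, a scaffold paralog, held 5 and 9 counts in the K562 controls, 155, 204 and 149 counts in the DOT1L KO, and 2, 2 and 1 counts in the ENL KO. It passed the filter on low counts through the DOT1L KO libraries alone, the group where it is high, so its values are a description and the tests lend no support. The fitted log2 fold changes were 4.39 for the DOT1L KO and -1.83 for the ENL KO, the latter -1.34 without control 2. In HEL it had 0 to 3 counts and was not tested. AFF2 went from 3 counts over both K562 controls to 69 over the DOT1L KO libraries, a ratio of 13.9 after division by the counted fragments of each group, with a 95% exact counting interval of 4.56 to 69.0. It had 4, 0 and 0 counts in the ENL KO and likewise passed the filter in K562 through the DOT1L KO alone, so this too is a description. In HEL, AFF2 had 39 and 39 counts in the control, through which it passed the filter, and 7 and 14 counts in the knockdown (fitted log2 fold change -1.87). EAF2, the paralog of EAF1, fell by 0.75 on the log2 scale in the DOT1L KO (SE 0.19, adjusted p 0.00535), rose by 0.89 in the ENL KO (SE 0.17, adjusted p 0.00104) and fell by 0.69 in HEL (SE 0.11, adjusted p 3.23e-07). The DOT1L KO value of EAF2 did not pass without control 2 (-0.61, adjusted p 0.0682).

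ENL and AF9 are alternative subunits, and the lines differed in their transcripts. MLLT3, which encodes AF9 and is named here after its values were seen, had 7209 and 7524 counts in the HEL controls and 6301 and 5965 in the HEL knockdown, or -0.25 on the log2 scale (SE 0.030, adjusted p 4.37e-10), and 0 to 2 counts in every K562 library. MLLT1 was counted in both lines. It rose by 0.40 in HEL (SE 0.048, adjusted p 5.72e-10), the largest increase among the listed genes there, from 1164 and 1066 counts to 1432 and 1483, and gave 0.03 in the DOT1L KO (adjusted p 0.659).

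Among the 7SK proteins, MEPCE, the enzyme that caps 7SK RNA, rose by 0.52 in the DOT1L KO (SE 0.12, adjusted p 0.00273), a call lost without control 2 (0.36, adjusted p 0.0599). Of the 3 genes LARP7, MEPCE and HEXIM2, 2 passed in the DOT1L KO, none in the ENL KO and 1 in HEL. Of the recruitment and release genes JMJD6 and PPM1G, JMJD6 was lower in the DOT1L KO, neither passed in the ENL KO and PPM1G was higher in HEL. Of the 6 pausing factors, 3 passed in the DOT1L KO (1 higher, 2 lower) and 2 in the ENL KO (1 higher, 1 lower), and 2 of the 5 tested passed in HEL (1 higher, 1 lower). Of the 3 little elongation complex genes 1 passed in each comparison, higher in the DOT1L KO and lower in the ENL KO and HEL. Of the 6 other kinases and cyclins, 3 passed in the DOT1L KO, all lower, and 1 in the ENL KO, higher, and 2 of the 5 tested passed in HEL (1 higher, 1 lower). The shares over all genes were 51.1% in the DOT1L KO (26.9% higher, 24.2% lower), 41.0% in the ENL KO and 55.0% in HEL. These small groups were not tested as sets. MNAT1, a subunit of the CDK7 kinase of TFIIH, fell by 0.64 in the DOT1L KO (SE 0.10, adjusted p 0.000133), and its partner CCNH rose by 0.62 in the ENL KO (SE 0.067, adjusted p 6.43e-06) and fell by 0.25 in the DOT1L KO (adjusted p 0.00613). NELFE and CDK7 were listed at 0 in every HEL library and at 23 to 69 counts in K562. The tables give their exons on 6 and 2 contigs, and their values are uncertain.

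**Figure D5:**
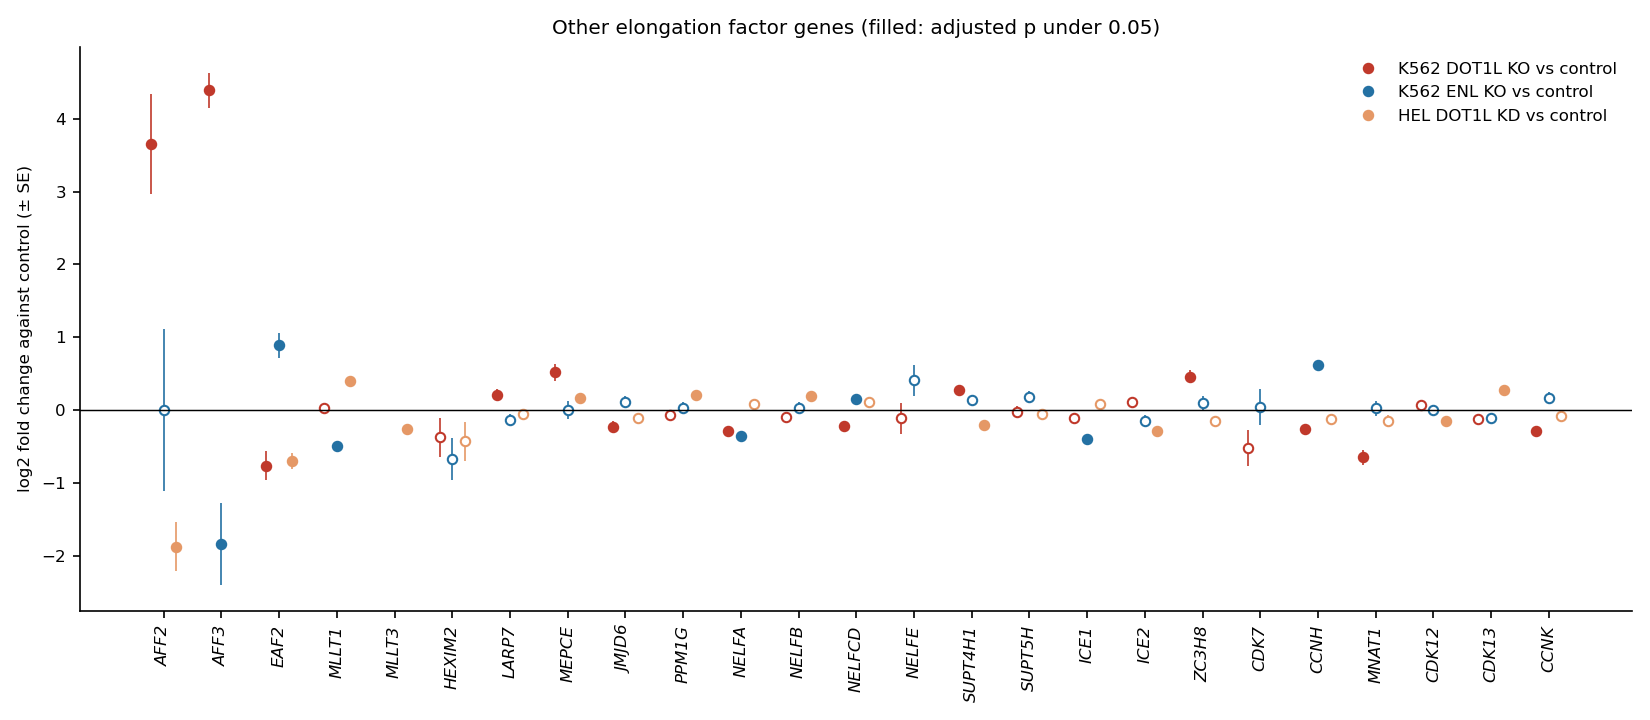
Log2 fold change against control with its SE (vertical axis) for the other genes of the pathway in 3 comparisons; filled points passed an adjusted p of 0.05. AFF2 and AFF3 lie highest, in the K562 DOT1L KO, at fitted values that rest on few control counts, and most other points lie between -1 and 1.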

How the data were processed

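RNA-seq was analysed in 13 of the 74 samples; the other 61 were not analysed here. The authors deposited raw counts per gene, of reads in HEL and of fragments in K562, per the file headers, with exons and exonic lengths. The submitters' processing notes name fastp 0.13.1, HISAT2 2.1.0, Bowtie2 2.3.4.1, deepTools and featureCounts 1.6.1 without roles, and builds hg38 and hg19. Of symbols matched to RefSeq on the main chromosomes, 99.8% overlapped their GRCh38 position, so coordinates are on GRCh38. Per the labels' protocols, libraries were stranded (dUTP). The strand setting in counting is not given in the sources used here. Samples were grouped by the labels.

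Genes were kept with filterByExpr (minimum count 10, minimum total 15), scaled with TMM factors and tested with edgeR 4.0.16 (glmQLFit and glmQLFTest, R 4.3.3), the K562 groups in 1 fit, HEL in another and the difference between lines in a joint fit. Benjamini-Hochberg adjustment ran over all genes tested, at a threshold of 0.05. The SE came from the F statistic. CPM is TMM-scaled. TPM uses the tables' exonic lengths, each gene's count per base over the library's sum. Common variation between replicates was 6.34% in K562 and 1.83% in HEL, so smaller differences passed in HEL. The procedure was tested on simulated data with a single spread per fit and changes placed only in well-counted genes. Genes at few counts, ELL3 among them, were not covered by it. DESeq2 1.42.0, other scalings, filters, a replicate block and each library left out were alternatives. A floor of 3 counts was worth 0.103 to 0.247 CPM. It and the counting interval of AFF2 cover counting error only, since no molecular identifiers were used.

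The members and gene lists were chosen with earlier results of these data known. 1 listed gene is not reported here. Named were all members, DOT1L and MLLT1, genes of the wider list past the threshold that changed by at least 0.5 on the log2 scale, the strongest increase and decrease of that list, and the 3 genes nearest in pattern to each of the 3 most changed members. Outside this rule, LARP7, HEXIM2, JMJD6 and PPM1G were named to describe their groups, and MLLT3, NELFE and CDK7 for their counts. SERF2 and PDIA3 were named for their overlap with ELL3. The DOT1L KO value of CCNH was added beside its ENL KO value.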

Additional observations from a re-analysis of the deposited data

Results flagged for a closer look

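The effect of DOT1L depletion differed between HEL and K562 in 5 members, by edgeR's test of the difference itself (log2 fold change in HEL minus that in K562). The difference was 0.32 for ELL, -0.33 for ELL2, -0.48 for EAF1, 0.28 for CDK9 and -0.48 for CCNT1. In K562, the 5 genes had log2 fold changes of -0.20, 0.02, 0.09, 0.11 and -0.04, and in HEL 0.10, -0.33, -0.41, 0.37 and -0.53, in the same order. Over all genes tested, 38.9% passed this test. The calls of EAF1 and CCNT1 held under every alternative run, and those of ELL, ELL2 and CDK9 were lost under DESeq2 and without several single libraries. The line cannot be told apart from knockdown against knockout or from read against fragment counting.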

How the results depend on the processing

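Over 750 values, the log2 fold changes of the members in 5 comparisons under each alternative, 670 kept their direction and their side of the threshold, 40 lost the call, 18 gained one and 22, past the threshold in neither setting, changed sign; no called value changed sign. Leaving out 1 library gave 1 to 3 members past the threshold in the DOT1L KO (2 with all libraries), 4 to 7 in the ENL KO (6), 4 to 6 between the knockouts (4), 6 to 7 in HEL (7) and 2 to 5 for the difference between lines (5). Over all genes the same settings gave 5664 to 7583, 4094 to 5872, 7665 to 8585, 5884 to 6207 and 4887 to 6473. For the difference between lines DESeq2 gave 2 members and no filter on low counts gave 3, beside 5213 and 5681 over all genes. When a log2 change of 0.5 or more was also asked for, the counts were 1 (DOT1L KO), 3 (ENL KO), 1 (between the knockouts), 1 (HEL) and 0 (difference between lines), and over all genes 4087, 2999, 4689, 2454 and 3904 in place of 7305, 5863, 8606, 6951 and 5980. DESeq2 called 4561 genes in HEL. Over all genes, upper-quartile scaling moved the share of higher calls in HEL from 49.1 to 61.4%.

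With the replicate block, 4 members passed in the DOT1L KO, 6 in the ENL KO, 6 between the knockouts, 7 in HEL and 7 for the difference between lines, while the counts over all genes were 8340, 7021, 9605, 6903 and 6822. The block added AFF1 (adjusted p 0.0376) and CDK9 (0.0313) in the DOT1L KO, EAF1 (0.0266) and HEXIM1 (0.00350) between the knockouts, and AFF1 (0.00367) and HEXIM1 (7.97e-06) for the difference between lines. HEXIM1 was highest in library 1 of each K562 group. The numbers were not taken as pairs: same-numbered K562 libraries correlated at 0.053 to 0.22 in their deviations from the group means, below 0.1 for some, not every library correlated best with its own number, and HEL gave 0.00044.

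Depth limited ELL3, AFF2 and AFF3, whose libraries held few counts. The K562 control had 2 libraries, and the ENL KO has no lane in its labels. Where a left-out library changed a call, the cause was not tested beyond the smaller number of libraries.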
